A study of Mus musculus with 6 samples.

Results

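The genes described are the ligands, receptors and binding proteins of the insulin-like growth factor (IGF) system, taken as the 10 named genes *Igf1*, *Igf2*, *Igf1r*, *Igf2r*, *Igfbp2*, *Igfbp3*, *Igfbp4*, *Igfbp5*, *Igfbp6* and *Igfbp7* among the 34745 genes of the deposited table. They were picked by gene name, with earlier results of these data known. All 10 had counts in every library and passed the filter on low counts, which left 14084 genes for testing. RNA-seq was performed on cardiac fibroblasts from the left ventricle of male mice of 8 to 10 weeks on Day 7 after myocardial infarction (MI), produced by tying off the left anterior descending artery for good. The libraries labelled KO (n = 3) came from KDM5B-KO mice on a C57BL/6 background, in which CRISPR/Cas9 removed bases of the JmjC domain of *Kdm5b*, a histone demethylase gene, and shifted its reading frame. The libraries labelled WT (n = 3) came from littermate wild-type mice, and both groups underwent MI, so neither shows the uninjured heart. The deletion is in the germ line and not limited to fibroblasts, and the labels do not say whether a library is 1 mouse or a pool.

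Insulin-like growth factors are secreted peptides that act through the IGF1 receptor, a tyrosine kinase that signals through insulin receptor substrate proteins, PI3K and AKT. Secreted binding proteins hold the ligands in tissue and blood, where they limit or prolong access to the receptor, and proteases such as pappalysin release the ligand again by cutting the binding protein. In the heart, fibroblasts are a known source of IGF1 and of several binding proteins, and the IGF2 receptor removes IGF2 by taking it to the lysosome.

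Totals ran from 12025403 to 15329427 counts per library, the coefficient of variation between replicates was 10.9%, and the first principal axis held 73.2% of the variance. *Kdm5b*, read as a check of the labels, had 98.1, 107 and 105 CPM (counts scaled to library size after TMM normalization) in the KO-labelled libraries and 108, 129 and 123 in the WT-labelled ones. Its log2 fold change was -0.22 (standard error, SE, 0.07, adjusted p = 0.0574, edgeR), which does not pass the threshold of 0.05. It was 0.19 under fibroblast marker scaling, an alternative that sets the median log2 fold change of 14 fibroblast markers to 0. That scaling takes these markers, as a group, to be unchanged between the labels, which was not tested. A count over the whole gene does not isolate the deleted bases, and the libraries are therefore called by their labels throughout.

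For the binding proteins that the results turn on, the 250 bases before the annotated start (RefSeq, GRCm38.p6) are shown 5′ to 3′ on the strand of the gene, because *Igfbp4* is the member that rose and *Igfbp3* and *Igfbp7* are those with the largest falls. Capitals mark matches on either strand to TGACTCA (the AP-1 site), TGACGTCA (the CRE), TATAAA (the TATA box), CCAAT (the CCAAT box) or GGGCGG (the GC box). The windows are chr11:99040994-99041243 on the plus strand for *Igfbp4*, chr11:7213924-7214173 on the minus strand for *Igfbp3* and chr5:77408046-77408295 on the minus strand for *Igfbp7*.
Igfbp4: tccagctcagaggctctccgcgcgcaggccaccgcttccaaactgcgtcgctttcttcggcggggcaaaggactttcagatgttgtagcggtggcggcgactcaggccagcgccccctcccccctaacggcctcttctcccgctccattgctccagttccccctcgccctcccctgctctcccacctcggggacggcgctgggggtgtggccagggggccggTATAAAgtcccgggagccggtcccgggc
Igfbp3: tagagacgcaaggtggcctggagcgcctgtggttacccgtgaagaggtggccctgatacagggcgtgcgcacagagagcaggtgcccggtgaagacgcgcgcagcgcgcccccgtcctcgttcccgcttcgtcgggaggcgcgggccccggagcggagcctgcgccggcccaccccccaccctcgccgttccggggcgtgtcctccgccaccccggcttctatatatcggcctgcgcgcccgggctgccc
Igfbp7: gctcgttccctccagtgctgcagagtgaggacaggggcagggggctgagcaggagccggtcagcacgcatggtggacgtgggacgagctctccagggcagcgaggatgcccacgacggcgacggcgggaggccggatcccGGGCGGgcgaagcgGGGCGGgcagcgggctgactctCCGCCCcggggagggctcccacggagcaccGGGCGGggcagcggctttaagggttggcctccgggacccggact
The *Igfbp4* window holds TATAAA close to the start, the *Igfbp7* window holds GGGCGG and its complement, and the *Igfbp3* window holds none of these letters. GC content was 69.2% for *Igfbp4*, 73.2% for *Igfbp3* and 74.0% for *Igfbp7*, against a median of 52.4% over 32851 promoter windows of the same length. All 10 genes were matched, with 14 starts, 4 of them for *Igf2* and 2 for *Igfbp2*. TATAAA was found at 2 of the 14 starts, those of *Igfbp4* and *Igfbp6* (12.4% of all windows). GGGCGG was found at 6 of the 14 starts, in *Igf2*, *Igf1r*, *Igf2r*, *Igfbp2* and *Igfbp7* (32.7% of all windows). CCAAT was found at 3 starts, in *Igf1*, *Igf2* and *Igfbp6* (33.8% of all windows). TGACTCA was found at 1 start of *Igfbp2* (4.46% of all windows) and TGACGTCA at none (1.55% of all windows). A match is a description of letters and not a bound site.

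*Igfbp4* rose and most other members fell. Of the 10 genes, 1 was called higher and 6 were called lower in the KO-labelled libraries at an adjusted p under 0.05 (edgeR), and 3 were not called. Over all genes tested, 30.2% were called, 17.7% higher and 12.5% lower. The libraries of the labels did not overlap in 8 of the 10 genes, as was so for 47.0% of all genes tested. The median log2 fold change was -0.36 over the members and -0.02 over all genes tested. These directions depend on the scaling. Under fibroblast marker scaling, *Igfbp4* was called higher, at a log2 fold change of 2.14, as were 62.8% of all genes tested. That scaling raised the median of all genes tested by 0.41 and could only raise *Igfbp4*. None of the members was called lower under it (0.341% of all genes tested were).

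**Figure D1:**
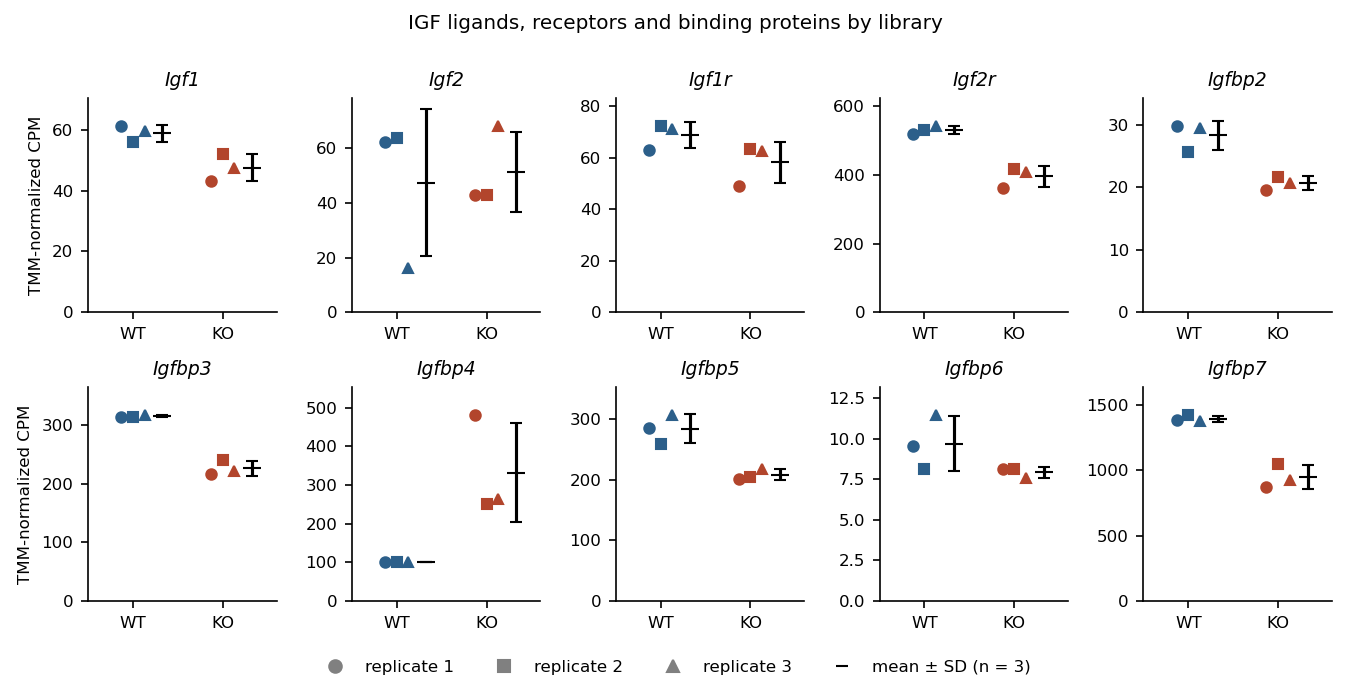
TMM-normalized CPM of the 10 genes in each library, with 1 panel per gene and its own y axis from 0, blue for WT and red for KO; the marker shape gives the replicate number and the bars are mean ± SD (n = 3). *Igfbp4* is higher in every KO-labelled library, *Igf2* is low in WT replicate 3, and most other genes sit lower in the KO-labelled libraries.

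The ligand *Igf1* (ENSMUSG00000020053, chromosome 10 from 87858265 to 87937042, plus strand, mm10), which encodes the main growth-promoting IGF of adult tissue, had 43.2, 52.0 and 47.5 CPM in the KO-labelled libraries and 61.2, 55.8 and 59.6 in the WT-labelled ones. Every KO value lay below every WT value. The means were 47.6 ± 4.38 and 58.9 ± 2.75 CPM (SD, n = 3), and the log2 fold change was -0.31 (SE 0.08, adjusted p = 0.0212, edgeR). The call is close to the threshold: in 4 of the 6 fits that left out 1 library (KO 1, KO 3, WT 1 or WT 3) the adjusted p rose above 0.05, with a range of 0.0115 to 0.0711 over the 6, and limma on log2 FPKM gave 0.0655 and 0.0629. Under fibroblast marker scaling its sign turned, to 0.10.

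The second ligand, *Igf2* (ENSMUSG00000048583, chromosome 7 from 142650766 to 142666816, minus strand), is an imprinted fetal growth factor gene. It had 42.8, 43.1 and 68.1 CPM in the KO-labelled libraries and 62.4, 63.8 and 16.2 in the WT-labelled ones. WT replicate 3 lay far below all other libraries, with a count of 228 against 891 and 935 in WT replicates 1 and 2, and KO replicate 3 lay above all others. The labels overlapped, and the log2 fold change was 0.12 (SE 0.44, adjusted p = 0.864, edgeR). Its 95% interval ran from -0.88 to 1.12, so a change within that range in either direction was not excluded. Without WT replicate 3 the log2 fold change was -0.30, and without KO replicate 3 it was -0.14. WT replicate 3 did not stand apart in general, since it was below 0.5 times both other WT libraries in 37 of the 11290 genes whose FPKM averaged 1 or more, and the corresponding number for the other libraries was between 16 and 43. *H19*, the imprinted noncoding RNA gene 72622 bases away from *Igf2*, had 42.4, 44.9 and 40.7 CPM in the KO-labelled libraries and 71.5, 54.1 and 54.9 in the WT-labelled ones. The low *Igf2* value of WT replicate 3 thus had no counterpart in *H19*.

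*Igf1r* (ENSMUSG00000005533, chromosome 7 from 67952859 to 68226780, plus strand), the signalling receptor, had 49.0, 63.2 and 62.5 CPM in the KO-labelled libraries and 63.1, 72.3 and 71.1 in the WT-labelled ones. KO replicate 2 reached WT replicate 1, so the labels overlapped. The log2 fold change was -0.24 (SE 0.10, 95% interval -0.48 to 0.0012, adjusted p = 0.122, edgeR), and it was 0.17 under fibroblast marker scaling. With a block for the replicate number it was -0.25 and was called lower (adjusted p = 0.0369, edgeR). *Igf2r* (ENSMUSG00000023830, chromosome 17 from 12682406 to 12769664, minus strand), which clears IGF2 and carries lysosomal enzymes that bear mannose 6-phosphate, had 362, 416 and 409.7 CPM in the KO-labelled libraries and 518, 531 and 542 in the WT-labelled ones. Its values did not overlap, and it fell by 0.42 on the log2 scale (SE 0.06, adjusted p = 0.0013, edgeR), with a log2 fold change of -0.01 under fibroblast marker scaling. The ratio of *Igf1r* to *Igf2r* counts within a library, which no scaling changes, was 0.136, 0.152 and 0.153 in the KO-labelled libraries and 0.122, 0.136 and 0.131 in the WT-labelled ones, and the ranges overlapped. *Airn*, a noncoding RNA gene on the opposite strand that overlaps *Igf2r*, had 509 counts in all libraries together against 39121 for *Igf2r*.

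*Igfbp4* (ENSMUSG00000017493, chromosome 11 from 99041244 to 99054392, plus strand), whose product holds IGFs and is cut by pappalysin, had 481, 252 and 265 CPM in the KO-labelled libraries and 100.3, 99.7 and 101 in the WT-labelled ones. The lowest KO value was far above the highest WT value, and KO replicate 1 stood above the other 2 KO-labelled libraries. The means were 333 ± 129 and 100.3 ± 0.626 CPM (SD, n = 3), a ratio of 3.32, and the log2 fold change was 1.73 (SE 0.23, 95% interval 1.21 to 2.25, adjusted p = 9.6e-04, edgeR). Without KO replicate 1 the log2 fold change was 1.37, the lowest of the fits that left out 1 library. The summed endothelial markers, described below, had 2694, 2000 and 2305 CPM in KO replicates 1 to 3, so replicate 1 was highest in them too, and their part in the *Igfbp4* result was not tested.

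The other binding proteins, apart from *Igfbp6*, fell. *Igfbp7* (ENSMUSG00000036256, chromosome 5 from 77349240 to 77408041, minus strand) encodes a matrix protein with low affinity for IGFs, and it had 874, 1050.1 and 921 CPM in the KO-labelled libraries and 1382, 1421 and 1375 in the WT-labelled ones. It fell by 0.55 on the log2 scale (SE 0.07, adjusted p = 5.9e-04, edgeR), without overlap. *Igfbp3* (ENSMUSG00000020427, chromosome 11 from 7206086 to 7213923, minus strand) encodes the main carrier of IGFs in blood, and it had 217, 241 and 222 CPM against 315, 314 and 318, a fall of 0.48 (SE 0.05, adjusted p = 3.1e-04, edgeR). The 3 WT values of *Igfbp3* lay within a narrow range and every KO value lay below them.

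*Igfbp5* (ENSMUSG00000026185, chromosome 1 from 72857932 to 72874884, minus strand) encodes a carrier that binds extracellular matrix. Its CPM were 202, 205 and 219 in the KO-labelled libraries and 286, 259 and 307 in the WT-labelled ones, without overlap, and its log2 fold change was -0.45 (SE 0.07, adjusted p = 0.0019, edgeR). *Igfbp2* (ENSMUSG00000039323, chromosome 1 from 72824503 to 72852474, plus strand), which lies tail to tail with *Igfbp5* at a distance of 5457 bases, encodes a carrier with an integrin-binding motif. It had 19.5, 21.7 and 20.7 CPM against 29.8, 25.6 and 29.5, also without overlap, and its log2 fold change was -0.45 (SE 0.09, adjusted p = 0.0067, edgeR). These 4 falls, of *Igfbp2*, *Igfbp3*, *Igfbp5* and *Igfbp7*, kept their call in every fit that left out 1 library, and under fibroblast marker scaling their log2 fold changes were -0.05, -0.07, -0.04 and -0.14, none of them called.

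*Igfbp6* (ENSMUSG00000023046, chromosome 15 from 102144362 to 102149511, plus strand), whose product prefers IGF2, had the lowest counts of the 6 binding protein members, 99 to 117 in the KO-labelled libraries and 119 to 161 in the WT-labelled ones. It had 8.11, 8.10 and 7.54 CPM against 9.52, 8.12 and 11.4. The labels were barely apart on the CPM scale and overlapped on the FPKM scale, and the log2 fold change was -0.29 (SE 0.15, 95% interval -0.63 to 0.05, adjusted p = 0.175, edgeR), with a sign that turned to 0.12 under fibroblast marker scaling. *Igfbp1* had a count of 0 in all 6 libraries, which allows up to 0.246 CPM (3 counts) in the smallest library, although it lies 3539 bases from *Igfbp3*.

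**Figure D2:**
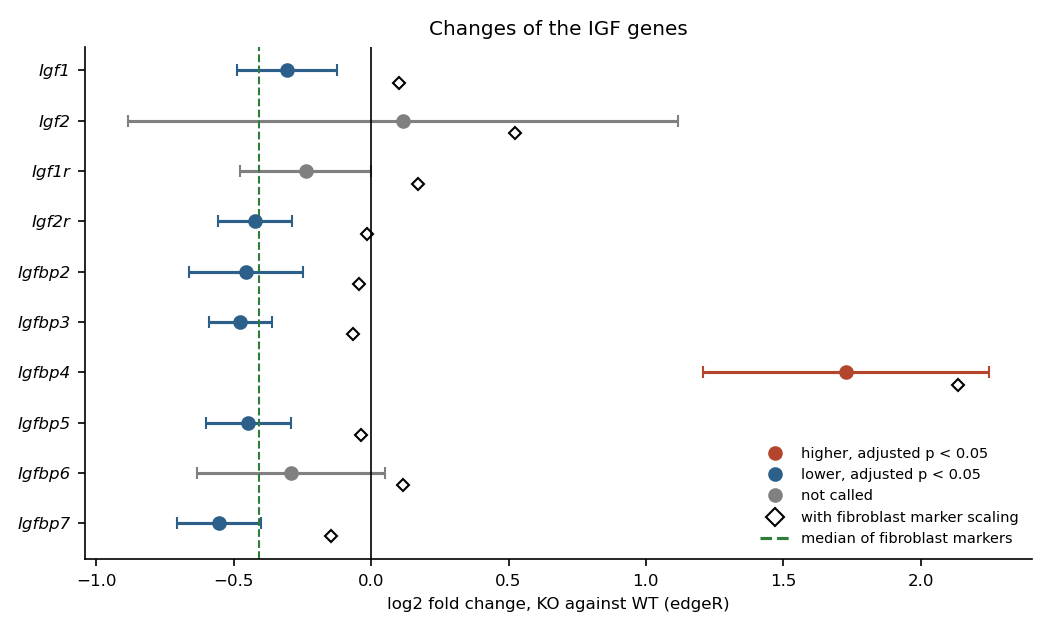
Log2 fold change of each gene, KO against WT, from edgeR with TMM normalization, shown as filled points with 95% intervals (red called higher, blue called lower, grey not called); open diamonds are the same genes under fibroblast marker scaling, and the dashed line is the median of the fibroblast markers, -0.41. *Igfbp4* lies to the right of 0 under both scalings, while the genes called lower lie near the dashed line and move close to 0 with the marker scaling.

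Cell type markers also differed between the labels. The 14 fibroblast markers, among them *Pdgfra*, *Dcn* and *Col1a1*, were all present. Of these, 13 were called lower in the KO-labelled libraries, against 12.5% of all genes tested. The median log2 fold change of the 14 was -0.41, at a summed level of 27217 to 31722 CPM against 38072 to 40499 CPM. Of the 15 endothelial markers 13 were called higher, against 17.7% of all genes tested. The median log2 fold change of the 15 was 2.55, at a summed level of 2000 to 2694 CPM against 567 to 572 CPM. *Pecam1*, a defining endothelial marker, had 720, 514 and 633 CPM in the KO-labelled libraries and 42.4, 40.3 and 35.7 in the WT-labelled ones. All 10 mitotic markers were called higher (median log2 fold change 0.81), against 17.7% of all genes tested. The medians were -0.41 for 10 cardiomyocyte markers, -0.39 for 10 macrophage markers, -0.42 for the 7 tested of 8 mural markers and -0.41 for 6 epicardial markers, although *Cd68* of the macrophage list (1.38), *Abcc9* of the mural list (0.84) and *Krt19* of the epicardial list (1.53) were called higher. None of the lymphocyte and erythroid markers had enough counts to be tested, and of the 3 tested neutrophil markers *S100a8* and *S100a9* were called higher (log2 fold changes 2.99 and 1.95), with a summed level over all 6 listed markers of 7.13 to 10.2 CPM against 2.80 to 3.85 CPM. The part of these markers in the results was not tested, and in bulk RNA fewer cells of a type and less RNA per cell cannot be told apart. Fibroblast marker scaling raised the median of all genes tested by 0.41.

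Ratios of counts within a library do not depend on the scaling. The *Igfbp4* count divided by the summed count of the other 5 binding proteins was 0.364, 0.165 and 0.191 in the KO-labelled libraries and 0.0496, 0.0492 and 0.0495 in the WT-labelled ones, 4.56 times higher. Against *Dcn*, a proteoglycan gene of fibroblasts, the ratio was 0.93, 0.435 and 0.466 compared with 0.135, 0.14 and 0.136, 4.18 times higher. Both ratios were higher in every KO-labelled library than in any WT-labelled one. Against *Kdr*, the endothelial VEGF receptor gene, the *Igfbp4* ratio was 2.00, 2.06 and 1.90 in the KO-labelled libraries and 11.6, 11.0 and 11.4 in the WT-labelled ones, which is lower. The ratios to *Pecam1* and *Cdh5*, which encode endothelial adhesion proteins, were also lower in every KO-labelled library. Over all 15 endothelial markers, the *Igfbp4* ratio was lower without overlap for 10, higher without overlap for 4 (*Tek*, *Emcn*, *Cldn5* and *Eng*) and overlapping for *Vwf*, so the direction depends on the marker. For *Igfbp7*, *Igfbp3* and *Igfbp5* the ratio to *Dcn* was 0.897, 0.948 and 0.970 times that in the WT-labelled libraries: *Igfbp7* to *Dcn* was 1.69, 1.81 and 1.62 against 1.86, 2.00 and 1.85, *Igfbp3* to *Dcn* was 0.42, 0.416 and 0.39 against 0.423, 0.442 and 0.427, both lower without overlap, and *Igfbp5* to *Dcn* overlapped between the labels. *Igf1* to *Dcn* was 0.0835, 0.0898 and 0.0835 in the KO-labelled libraries and 0.0823, 0.0786 and 0.0802 in the WT-labelled ones, slightly higher without overlap.

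**Figure D3:**
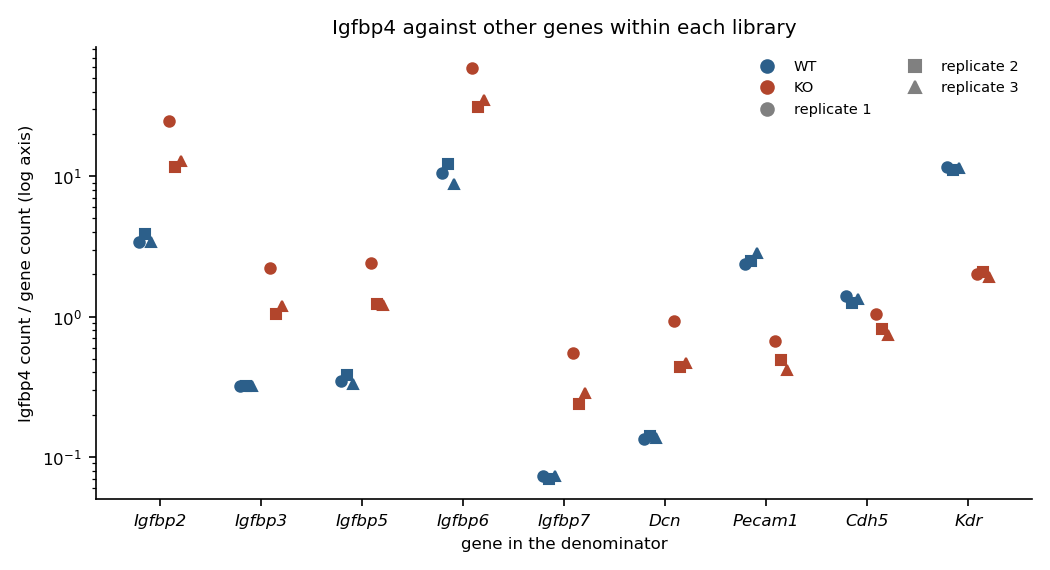
Ratio of the *Igfbp4* count to the count of another gene in each library, on a log axis, for the other binding proteins, *Dcn* and 3 endothelial genes; blue is WT, red is KO and the marker shape gives the replicate number. The ratio is higher in every KO-labelled library against the binding proteins and *Dcn*, and lower against *Pecam1*, *Cdh5* and *Kdr*, which are among the 10 of 15 endothelial markers with that direction.

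Levels can be compared between genes only per length. The deposited FPKM divides by a length that counts overlapping exons of different transcripts repeatedly, which for *Igf2* is 13154 bases against 5723 bases of non-overlapping exon, so levels are given here as counts per kilobase of non-overlapping exon, scaled to library size (in GENCODE M21, with the deposited length kept for *Igf1r*, whose gene model differs). In the WT-labelled libraries, *Igfbp7* had the highest level, 1137 ± 17.9 (SD, n = 3), followed by *Igfbp3* at 99.5 ± 0.706, *Igf2r* at 56.3 ± 1.21, *Igfbp5* at 46.7 ± 4.01 and *Igfbp4* at 22.4 ± 0.177, each apart from its neighbour. *Igf1r* at 15.1 ± 1.07 and *Igfbp2* at 15.1 ± 1.28 overlapped, as did *Igfbp6* at 8.61 ± 1.49 and *Igf2* at 8.19 ± 4.67, and *Igf2* overlapped with *Igf1* at 5.87 ± 0.289. In the KO-labelled libraries, *Igfbp7* was again highest, at 793 ± 71.7, and *Igfbp4* at 76.2 ± 29.9 and *Igfbp3* at 73.2 ± 3.63 came next and overlapped. On the FPKM scale, *Igfbp7* made up 82.8 ± 0.746% of the summed level of the 6 binding proteins in the WT-labelled libraries and 76.2 ± 3.56% in the KO-labelled ones. The share of *Igfbp4* was 1.93%, 1.88% and 1.94% in the WT-labelled libraries and 12.8%, 6.09% and 7.13% in the KO-labelled ones.

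**Figure D4:**
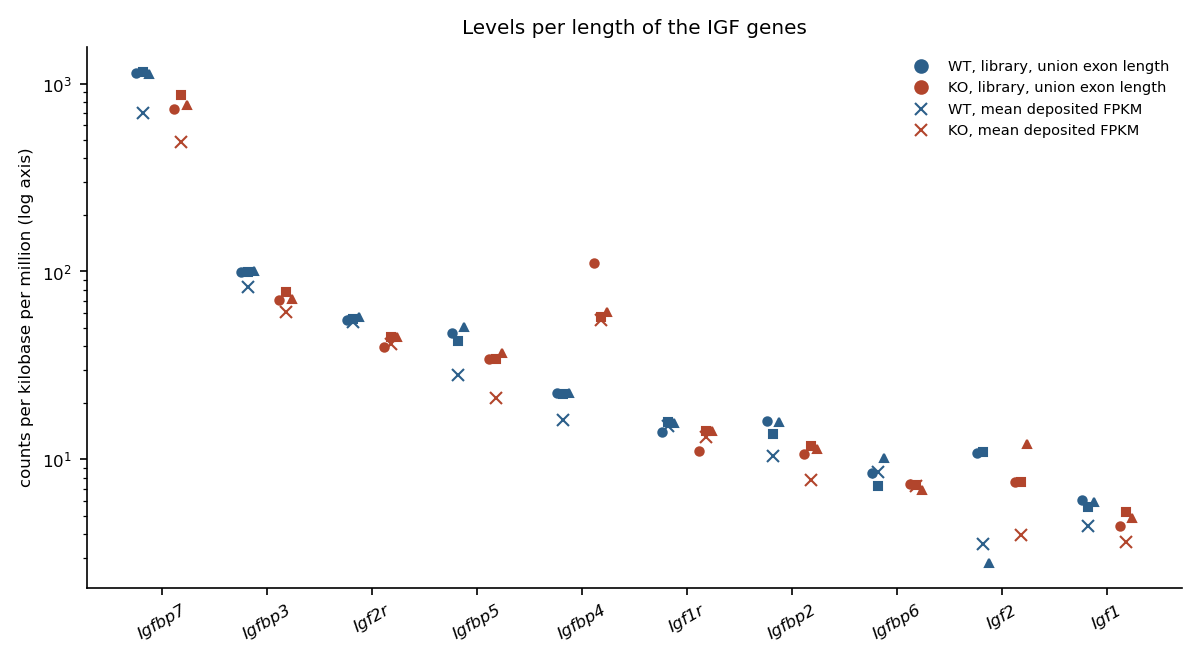
Level of each gene per kilobase, scaled to library size, on a log axis, in order of the WT mean; filled points are single libraries with the non-overlapping exon length (blue WT, red KO) and crosses are group means of the deposited FPKM. With the non-overlapping exon length *Igfbp7* is more than 10 times any other gene in WT (1137 against 99.5 for *Igfbp3*; on FPKM 701 against 82.3), *Igfbp4* moves up to the level of *Igfbp3* in KO, and *Igf2* differs most between the length definitions.

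Summed over groups of members, the binding proteins had 626, 679 and 615 FPKM in the KO-labelled libraries and 844, 853 and 843 in the WT-labelled ones, a ratio of 0.756. The summed receptors had 48.8, 57.0 and 56.6 FPKM against 66.5, 69.5 and 70.6, a ratio of 0.786. Both sums were lower in every KO-labelled library, with p = 0.1 each from an exact two-sided permutation test (0.15 after adjustment over the 3 sums), the smallest p that 3 libraries against 3 allow. Fibroblast marker scaling was not applied to the sums, whose log2 ratios of -0.40 and -0.35 are no larger in size than the 0.41 by which it moved the median of all genes. The summed ligands had 6.65, 7.26 and 8.90 FPKM against 9.30, 8.96 and 5.69 and overlapped (exact permutation p = 0.8). *Igfbp7* dominates the binding protein sum, which was therefore lower although *Igfbp4* rose.

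The genes around the members were read from a list of 42 other genes of the pathway, 37 of which were tested. Of these, 4 were called higher (*Stc1*, *Sos1*, *Foxo1* and *Jak2*) and 13 lower, where 17.7% of all genes tested were called higher and 12.5% lower. The other 20 were not called, and the median log2 fold change was -0.05. Under fibroblast marker scaling 20 were called higher and 0 lower, where 62.8% of all genes tested were called higher and 0.341% lower, and none of the lower calls below was made. *Igfals*, the acid-labile subunit gene of the blood carrier complex, *Irs4* and *Igfbp1* had no counts.

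Of 6 genes of binding protein cleavage, 1 was called higher and 4 lower, against 30.2% of all genes tested called in either direction, and the 4 lower calls were not made under fibroblast marker scaling. *Stc1*, whose product stanniocalcin-1 inhibits pappalysin, had 21.6, 12.8 and 17.0 CPM in the KO-labelled libraries and 1.47, 0.682 and 1.56 in the WT-labelled ones. It was at 10 to 22 counts per library in WT and 170 to 264 in KO, without overlap, and its log2 fold change was 3.78 (SE 0.30, adjusted p = 7.0e-05, edgeR), 2.07 in limma on log2(FPKM + 1) and 3.49 in limma on log2(FPKM + 0.1). *Pappa*, the gene of the pappalysin that cuts IGFBP4, had 56.9, 70.7 and 67.8 CPM against 78.3, 84.5 and 86.6, and its log2 fold change was -0.35 (adjusted p = 0.0175, edgeR), with a sign that turned to 0.06 under fibroblast marker scaling. Its adjusted p was 0.055 without WT replicate 2 and 0.0609 without WT replicate 3. The ratio of *Stc1* to *Pappa* counts was 0.38, 0.18 and 0.25 against 0.0188, 0.00808 and 0.0181, 18.4 times higher. *Htra1*, a secreted serine protease gene, was lower (log2 fold change -0.47, adjusted p = 0.0014), as were *Adam12* (-0.43) and *Stc2* (-0.31, which became 0.09 under fibroblast marker scaling), while *Pappa2* had a log2 fold change of 0.28 and was not called (adjusted p = 0.138, edgeR).

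Downstream of the receptor, *Irs1* and *Irs2*, the insulin receptor substrate genes, were lower. Their log2 fold changes were -0.57 (adjusted p = 0.0012, edgeR) and -0.49 (adjusted p = 0.0152, edgeR, and 0.0517 without KO replicate 3). Of the 8 tested genes of their list, the adaptors, 4 were called lower and 1 higher, against 12.5% and 17.7% of all genes tested. The higher one was *Sos1*, with a log2 fold change of 0.34 (adjusted p = 0.0079, edgeR). Of the 9 genes of PI3K and AKT only *Akt1* was called, against 30.2% of all genes tested. Its log2 fold change was -0.22 (adjusted p = 0.0085, edgeR). It became 0.19 under fibroblast marker scaling, where *Akt1* was called higher (adjusted p = 0.0077, edgeR), as were 62.8% of all genes tested. *Foxo1*, a transcription factor gene that AKT restrains at the protein level, was higher at 48.1, 37.1 and 38.4 CPM against 30.7, 30.9 and 30.1 (log2 fold change 0.43, adjusted p = 0.0153, edgeR; 0.0518 without WT replicate 3), and *Foxo4* had a log2 fold change of -0.32 (adjusted p = 0.0151, edgeR; 0.0554 without WT replicate 3), which became 0.09 under fibroblast marker scaling. Among the *Igf2* mRNA-binding proteins, *Igf2bp3* had a log2 fold change of -0.35 and *Igf2bp1* of -0.23 (adjusted p = 0.0296 and 0.0481, edgeR), which became 0.06 and 0.18 under fibroblast marker scaling, and *Igf2bp3* lost its call in both limma fits (adjusted p = 0.0631 and 0.0621) and without KO replicate 1, WT replicate 2 or WT replicate 3, and *Igf2bp1* without any library other than KO replicate 2. In the growth hormone axis, which drives *Igf1* in many tissues, *Ghr*, the growth hormone receptor gene, had a log2 fold change of -0.40 (adjusted p = 0.0012, edgeR), which became 0.0083 under fibroblast marker scaling and was not called there (adjusted p = 0.910, edgeR), and *Jak2*, the kinase gene it signals through, had 148, 145 and 145 CPM against 106, 101 and 106 (log2 fold change 0.49, adjusted p = 2.0e-04, edgeR).

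**Figure D5:**
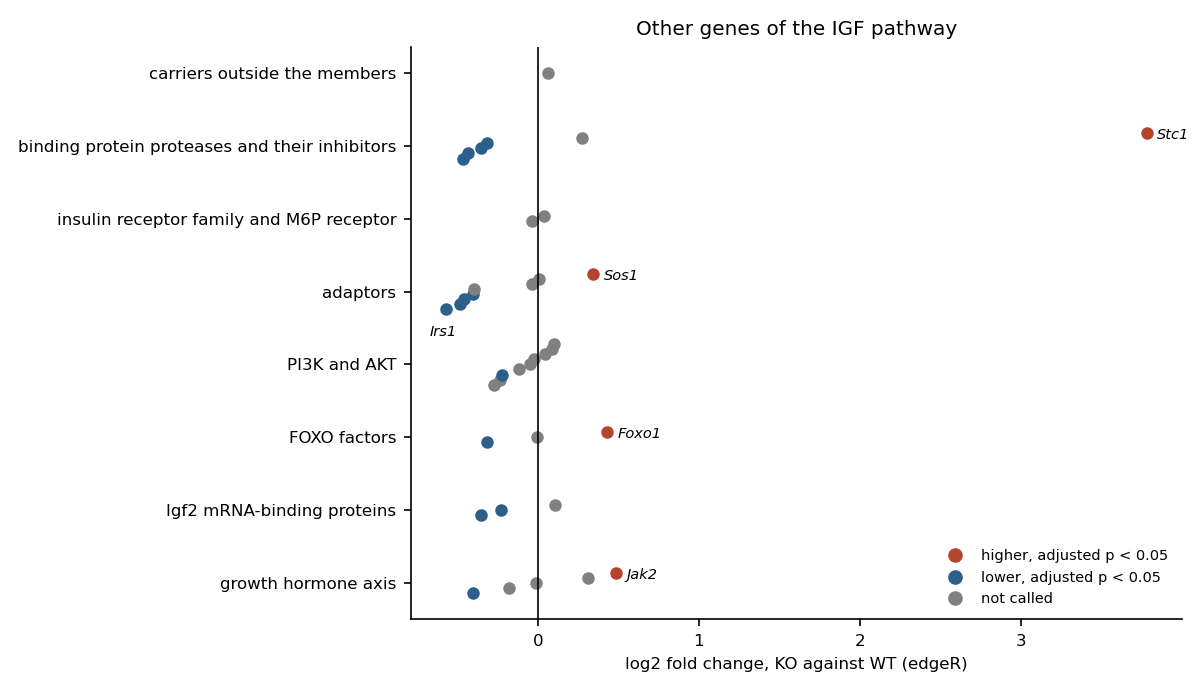
Log2 fold change, KO against WT, of the 37 tested pathway genes outside the members, with 1 row per role; red is called higher, blue called lower and grey not called (edgeR, adjusted p under 0.05). *Stc1* lies far to the right of all others, at 3.78, and the genes called lower lie between -0.57 and -0.22.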

How the data were processed

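RNA-seq was performed on 3 libraries labelled KO and 3 labelled WT. The authors made stranded libraries, aligned paired reads with HISAT2 (defaults) to mm10, and deposited raw counts per gene without normalization. They also deposited FPKM values, made by the authors from those counts, each library's total and a gene length. The submitters' processing notes also name edgeR; the counting tool, annotation and strand setting are not given in the sources used here.

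The count test was edgeR 4.0.16, run in R 4.3.3, with all 6 libraries and no covariate. It used filterByExpr, TMM, glmQLFit and glmQLFTest, two-sided, with Benjamini-Hochberg over 14084 genes and a threshold of 0.05. It was first tested on simulated data with few changed genes of random sign, which do not test the choice of scaling. P-values measure the spread between libraries, which may be technical. Intervals cover 95%, and floors of 3 counts cover counting error only. Sums were compared with exact permutation tests. The FPKM length was checked against GENCODE M21: it lay within 1% of the sum of distinct exon lengths in 73.7% of 20742 genes, and of the non-overlapping exon length in 24.3%.

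Alternatives were other filters, library size, upper quartile or fibroblast marker scaling, DESeq2 1.42.0, limma 3.58.1 on log2(FPKM + 1) or log2(FPKM + 0.1), a block for the replicate number, leaving out each library, and TPM, TMM-corrected FPKM or non-overlapping exon length for the sums and levels (the last chosen after seeing the data). Members and lists were chosen with earlier results of these data known. Named were the members, *Kdm5b*, the 2 called genes with the largest change in each pathway list, defining markers, and the 3 genes most like the members with the largest rise and fall, of which 1 is not reported here. Other genes were named after their values were seen, among them *H19*, *Airn*, *Kdr*, other endothelial markers, *Pappa*, *Pappa2*, *Adam12*, *Stc2* and *Sos1*. Python 3.11.15 and matplotlib 3.10.9 drew the figures.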

Additional observations from a re-analysis of the deposited data

How the results depend on the processing

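*Igfbp4* was called higher in all 15 alternatives, with log2 fold changes from 1.37 to 2.14, and the count of members called lower, 6, stayed between 5 and 7 except under fibroblast marker scaling, where it was 0, while pathway genes called higher were 20 and called lower 0. That scaling turned the sign of *Igf1* (0.10), *Igf1r* (0.17), *Igfbp6* (0.12), *Akt1* (0.19), *Foxo4* (0.094), *Igf2bp1* (0.18), *Igf2bp3* (0.056), *Ghr* (0.0083) and *Kdm5b* (0.19, adjusted p = 0.0469 from edgeR); over all genes it gave 8851 higher and 48 lower calls, against 2488 and 1760 with TMM. *Igf2* turned without KO replicate 3 (-0.14) and without WT replicate 3 (-0.30), and was 0.39 without WT replicate 2. With 1 library left out, members called lower numbered 5 to 6 and higher 1, pathway genes called higher 3 to 5 and lower 9 to 15, and the log2 ratios of the sums were -0.26 to 0.05 for ligands, -0.39 to -0.28 for receptors and -0.45 to -0.37 for binding proteins. Pathway genes called lower were 9 without WT replicate 3. Deviations of same-numbered libraries had correlations of 0.002, 0.003 and 0.03. With 3 libraries per group, these cannot show whether the numbers pair the samples. With the replicate block 7 members were called lower, *Igf1r* being added (adjusted p = 0.0369 from edgeR). *Kdm5b* was called with that block (adjusted p = 0.0271 from edgeR), and all calls were 2316 higher and 1591 lower. *Kdm5b* was also called with the upper quartile (-0.26) and without WT replicate 1 (-0.29). *Stc1* was called in every alternative, with 2.07 in limma on log2(FPKM + 1) against 3.78. *Igf2bp1* kept its call in 4 of the 15 alternatives. *Akt1* was called higher under fibroblast marker scaling (adjusted p = 0.0077 from edgeR). The smallest count of a member was 99, in *Igfbp6*.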

Other observations

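The genes whose log2 CPM followed *Igfbp4* most closely over the 6 libraries, of 11319 compared, were *Nop2*, *Atf3* and *Fez2*, with Pearson r of 0.9996, 0.9990 and 0.9990. *Atf3*, a stress-responsive transcription factor gene, had 160, 63.7 and 64.4 CPM in the KO-labelled libraries and 16.5, 18.2 and 17.6 in the WT-labelled ones, so KO replicate 1 stood highest in it as it did in *Igfbp4*. *Fez2* had 119, 83.4 and 85.9 CPM against 53.1, 53.6 and 55.0. *Nop2*, a nucleolar protein gene, followed the same order with a far smaller range, 138, 130 and 130 CPM against 118, 118 and 118. For *Igfbp7* the closest genes included *Zfp651* and *Meg3*, an imprinted noncoding RNA gene, with Pearson r of 0.9996 and 0.9993. *Meg3* had 302, 346 and 317 CPM in the KO-labelled libraries and 428, 431 and 425 in the WT-labelled ones. These correlations describe 6 libraries that share 2 labels, and a gene that differs between the labels correlates with any other such gene.

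The genes closest to *Igf2*, chosen after its values were seen, were *Smim8*, *Zc3h14* and *Gm9776*, with Pearson r of 0.991, 0.988 and 0.984. *Smim8* had 4.97, 5.12 and 3.63 CPM in WT replicates 1 to 3 and 4.75, 4.73 and 5.29 CPM in the KO-labelled libraries, a spread far smaller than that of *Igf2*. *Polr2b*, an RNA polymerase II subunit gene on the opposite strand, overlaps the end of *Igfbp7* and had 6864 counts in all libraries together against 98868 for *Igfbp7*. *Igf2os*, on the opposite strand of *Igf2*, had 31 counts against 4208. Reads from the bases that such opposite-strand pairs share can be told apart only in counting that uses strand. That setting is not given in the sources used here.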
